A study of Homo sapiens with 4 samples.

Results

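The transcripts described here encode the proteins that bind monomeric actin or return it to the monomer pool. They comprise the thymosins TMSB10 and TMSB4X, the profilins PFN1 and PFN2, the cofilin family (CFL1, CFL2 and DSTN), the cyclase-associated protein CAP1 and the twinfilins TWF1 and TWF2. These 10 of 62443 genes were chosen by protein family with the difference between miR-187 and miR-NC in these libraries already in view, so their values in that contrast are a description and no p-value is given for them. They were measured by mRNA sequencing of EA.hy926, a human line made by fusing an umbilical vein endothelial cell with a lung carcinoma line, whose dual origin limits it as a model of heart endothelium. There were 2 libraries from cells given a negative control miRNA (miR-NC) and 2 from cells transfected with miR-187, with no other agent named for either group, to learn which transcripts miR-187 alters. Nothing states that replicates came from separate cultures, so an SD may be technical.

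Actin cycles between single molecules (monomers) and filaments. Beta-thymosins hold monomers in reserve, profilins load them onto growing filament ends, and cofilins sever and shorten old filaments. CAP1 helps cofilin release monomers and recharge them with ATP, and twinfilins bind monomers and cap filament ends. In endothelial cells this turnover underlies migration, sprouting and the anchoring of cell junctions.

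All 10 genes passed the expression filter, which asked for at least 1 FPKM in at least 2 libraries and kept 8196 genes. FPKM counts fragments per length of transcript and per mapped fragments of the library, so levels of different genes can be set side by side. The libraries differed as a whole, since the median log2 fold change over tested genes was -0.39 and 85.2% of tested genes lay below 0. Fold changes of the 10 genes are therefore also given after median-of-ratios scaling, which moved that median to -0.01. The endothelial genes ESAM and CDH5 were expressed, but VWF and KDR stayed below 0.2 FPKM and CLDN5 was listed at 0. Among carcinoma markers the keratins KRT8 and KRT18 were abundant, while EPCAM and CDH1 were at or near 0. The keratin KRT7 read 709 and 786 FPKM with miR-NC, against 468 and 797 with miR-187, and KRT19 read at most 0.251 FPKM. The summed FPKM of 7 matched endothelial markers was 123 and 150 with miR-NC against 67.6 and 65.6 with miR-187. ESAM alone read 105 and 124 FPKM against 56.1 and 55.6, and PECAM1 matched no identifier. By limma ESAM and CDH5 passed as lower (adjusted p below 0.05), while TIE1 and TEK did not. The part of this endothelial shift in the values below was not tested. Among leukocyte genes PTPRC, CD3E and ITGAM were listed at 0 in every library. The lysozyme gene LYZ read 3.95 and 4.99 FPKM with miR-NC, against 2.01 and 1.65 with miR-187. It passed as lower in the values as deposited (limma log2 fold change -0.95, adjusted p = 0.014). After median-of-ratios scaling it did not (-0.59, adjusted p = 0.075). In all, 7 fibroblast and smooth muscle markers summed to at most 0.343 FPKM. In bulk RNA, fewer cells that carry a transcript and less of it per cell cannot be told apart.

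With miR-NC the family was led by its thymosins, far above the other members in level, and ended with the twinfilins. The mean levels ran from 7333 FPKM for TMSB4X through 5707 for TMSB10, 2785 for CFL1, 1048 for PFN1, 232 for DSTN, 45.8 for PFN2, 42.7 for CFL2, 25.4 for CAP1 and 16.2 for TWF2 to 3.61 FPKM for TWF1. Only PFN2 and CFL2 overlapped with their neighbour in that order. With miR-187 the order was the same apart from TMSB10, which came after CFL1 and PFN1, and the overlapping pair CFL2 and PFN2, which changed places. TMSB10 ranked 23 and 25 among all genes in the miR-NC libraries and 130 and 132 in the miR-187 libraries. CFL1 hardly shifted, ranking 35 in both miR-NC libraries and 37 in both miR-187 libraries.

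**Figure D1:**
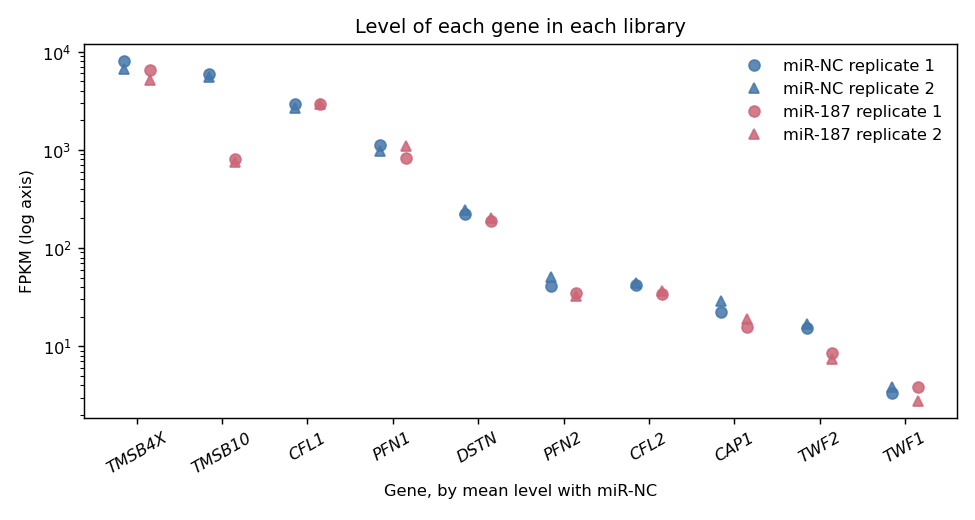
FPKM (log axis) of the 10 genes in each library, ordered by the mean with miR-NC; blue marks miR-NC, red marks miR-187, circles replicate 1 and triangles replicate 2. TMSB10 is the gene with a wide gap between groups, at 5884 and 5531 FPKM against 809 and 745 FPKM.

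TMSB10 encodes thymosin beta-10, a small peptide that keeps actin monomers out of filaments. The gene (ENSG00000034510) lies on chromosome 2 from 84905625 to 84906675 on the plus strand (GRCh38, GENCODE 29), inside TRABD2A on the opposite strand, which read 2.85 to 4.59 FPKM. TMSB10 read 5884 and 5531 FPKM in the miR-NC libraries and 809 and 745 FPKM in the miR-187 libraries. Both miR-187 libraries were thus far below both controls, while the replicates of a group lay close together. The means were 5707 ± 249 FPKM and 777 ± 45.0 FPKM (SD, n = 2), so that 13.6% of the control level was left, a log2 fold change of -2.88 ± 0.08 (SE). After median-of-ratios scaling the log2 fold change was -2.39 ± 0.20 (SE). It was the third lowest log2 fold change among all 8196 tested genes. The seed, bases 2 to 8 of a miRNA, is the part that finds its targets. TMSB10 was the member with a match to part of it, bases 2 to 7. The mature miR-187-3p is shown with its seed in capitals, and 30 bases of the TMSB10 3' UTR with the match in capitals, both 5′ to 3′:
hsa-miR-187-3p: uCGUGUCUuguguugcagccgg
TMSB10 3' UTR: cctgcaagatgGACACGAgccacaagctgc

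The miR-187-3p sequence is that of RefSeq (GRCh38.p14), where it lies on chromosome 18 from 35904835 to 35904856 on the minus strand. GACACGA is a 7mer-A1 match, which pairs with bases 2 to 7 of the miRNA and is followed by A. It spans positions 84906500 to 84906506 of the plus strand of chromosome 2 (GRCh38, GENCODE 29), in exon 3 of 3, starting at base 77 of a 3' UTR of 252 nucleotides. The other 9 members held neither a 7-mer match (AGACACG or GACACGA) nor the shorter GACACG in the 3' UTR searched, although these ran from 248 nucleotides in PFN1 to 6096 in CFL2. In no annotated basic coding transcript of those 9 genes was a 7-mer match found. Among 7083 tested genes with a 3' UTR, 3.18% held a 7-mer or 8-mer match and 0.833% a 7mer-A1 match. A match is a string of letters and does not show that the miRNA acts there.

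Of the 54 tested genes whose only 7-mer matches were of the 7mer-A1 type, 21 passed as lower (38.9%, against 27.3% of all tested genes). Another 2 of the 54 passed as higher, where 1.49% of all tested genes did. TMSB10 had the lowest log2 fold change of the 54. Without TMSB10 20 of 53 passed as lower (37.7%), and after median-of-ratios scaling 6 of 53 did (11.3%, against 3.7% of all tested genes). After that scaling 3 of the 53 passed as higher, where 4.67% of all tested genes did. These shares were not tested against each other. The sets also differ, since the 54 come from the 7083 tested genes with a 3' UTR. Values for all tested genes include genes for which none was searched. The 7mer-A1 type was that of the TMSB10 match, and shares for other types of match are not given. Whether the match plays a part in these shares was not tested. After TMSB10, the scaffold gene GIPC1 was the next lowest of the 54, at -2.30. The median of these genes was -0.58, against -0.39 over all tested genes. Abundant transcripts seldom moved so far. Among the 107 tested genes averaging 1000 FPKM or more, a limit chosen after the values were seen, the median log2 fold change was 0.08. TMSB10 and TUBA1B-AS1, an antisense transcript that can share reads with its tubulin gene, were the only ones below -1.

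**Figure D2:**
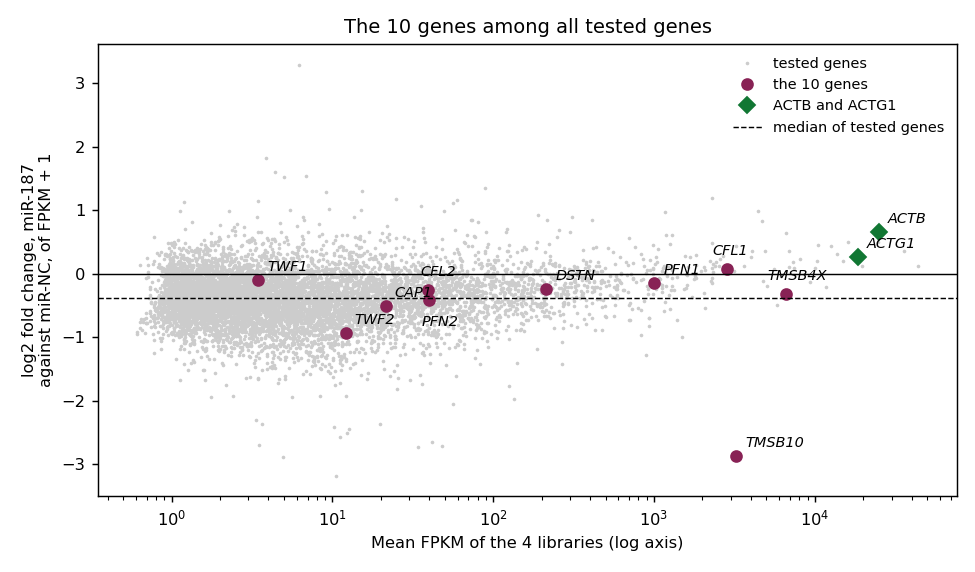
Log2 fold change of FPKM + 1 against the mean FPKM of the 4 libraries (log axis) for every tested gene (grey), the 10 genes (purple) and ACTB and ACTG1 (green diamonds). TMSB10 lies at -2.88 among abundant genes whose median is 0.08; the dashed line is the median of all tested genes, -0.39.

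The genes with the 4-library profile nearest to TMSB10 were SPARC, CCL2 and CAVIN1. Nearness was the Euclidean distance between log2(FPKM + 1) values centred on each gene's mean, and it was 0.257 for SPARC, 0.392 for CCL2 and 0.402 for CAVIN1. SPARC, a matrix glycoprotein gene, read 80.3 and 88.9 FPKM with miR-NC, against 11.8 and 12.2 with miR-187. With only 4 libraries this ranks genes mainly by the size of their difference between groups.

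TMSB4X encodes thymosin beta-4, the close relative of thymosin beta-10 and the main monomer reserve of many cells, known for its part in endothelial migration. The gene (ENSG00000205542) lies on chromosome X from 12975108 to 12977227. It read 8034 and 6631 FPKM with miR-NC, against 6543 and 5187 with miR-187. The groups did not overlap, but the lower control and the higher miR-187 library were nearly equal. The log2 fold change was -0.33 ± 0.11 (SE) as deposited, which is 0.06 above the median of all tested genes, and it turned to 0.16 ± 0.31 (SE) after median-of-ratios scaling. TMSB4XP8, a pseudogene copy that can take reads from TMSB4X, ran at 2.37% and 2.33% of its parent with miR-NC against 2.18% and 2.03% with miR-187. The pair of TMSB10 pseudogenes reached at most 0.0832 FPKM in any library.

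The thymosin pair can be compared inside each library, where a common scaling factor cancels. TMSB10 stood at 0.732 and 0.834 of the TMSB4X level in the miR-NC libraries and at 0.124 and 0.144 in the miR-187 libraries. The mean ratio was 5.86 times as high with miR-NC (0.783 ± 0.0720 against 0.134 ± 0.0142, SD, n = 2). Together the pair summed to 13918 and 12163 FPKM with miR-NC against 7352 and 5932 FPKM with miR-187, which is 50.9% of the control mean.

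PFN1, the main profilin of most cells, and PFN2, the form best known from brain, supply monomers to growing ends. PFN1 (ENSG00000108518) lies on chromosome 17 from 4945652 to 4949061 and PFN2 (ENSG00000070087) on chromosome 3 from 149964904 to 150050788. PFN1 read 1125 and 972 FPKM with miR-NC, against 833 and 1081 with miR-187. The groups overlapped, with the miR-187 libraries on either side of the miR-NC replicate 2 value, and the log2 fold change was -0.14 ± 0.12 (SE) as deposited and 0.35 ± 0.23 once scaled. PFN2 read 40.5 and 51.1 FPKM with miR-NC, against 34.8 and 32.8 with miR-187. Both miR-187 libraries were lower, with a log2 fold change of -0.42 ± 0.16 (SE), close to the median of all tested genes, and 0.06 ± 0.10 (SE) after median-of-ratios scaling. The ratio of PFN1 to PFN2 was 27.7 and 19.0 with miR-NC against 24.0 and 33.0 with miR-187, so it overlapped too. The pseudogene PFN1P1 ran at 1.64% to 1.98% of PFN1, and ENO3, which overlaps PFN1 on the opposite strand, read 7.12 to 21.6 FPKM, far below it.

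The cofilin family differed little between groups. CFL1 (ENSG00000172757) lies on chromosome 11 from 65823022 to 65862026, CFL2 (ENSG00000165410) on chromosome 14 from 34706769 to 34714823 and DSTN (ENSG00000125868) on chromosome 20 from 17569863 to 17609919. CFL1, the non-muscle cofilin that cuts filaments, read 2924 and 2645 FPKM with miR-NC, against 2922 and 2915 with miR-187. The miR-187 libraries lay between the controls, and the log2 fold change was 0.07 ± 0.08 (SE), the only one of the 10 above 0 in the values as deposited. CFL2, the muscle form, read 41.5 and 44.0 FPKM with miR-NC, against 34.2 and 36.8 with miR-187. DSTN, which encodes the actin depolymerizing factor destrin, read 221 and 244 FPKM with miR-NC, against 190 and 201 with miR-187. For both genes the groups were apart by little, with log2 fold changes of -0.26 ± 0.14 and -0.25 ± 0.11 (SE), which became 0.21 ± 0.12 and 0.24 ± 0.11 after median-of-ratios scaling, where that of CFL1 was 0.56 ± 0.22.

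Inside the libraries the FPKM ratios of CFL1 to its relatives were higher with miR-187. Its ratio to CFL2 was 70.4 and 60.2 with miR-NC against 85.5 and 79.3 with miR-187, and its ratio to DSTN was 13.2 and 10.9 against 15.3 and 14.5. Neither pair of groups overlapped, but in both ratios the gap between the nearest libraries was smaller than the gap between the controls. A ratio cancels a factor common to the library, but not a shift that varies with level. With quantile normalization the log2 fold changes were -0.09 for CFL1, 0.12 for CFL2 and -0.02 for DSTN. With cyclic loess they were 0.02, 0.11 and -0.01. The higher ratio to CFL2 thus held under neither, and that to DSTN not with quantile normalization. The pseudogenes CFL1P1, CFL1P5 and DSTNP2 stayed between 0.213 and 4.58 FPKM in every library. No test of the ratios was made, since the contrast was in view when the genes were chosen.

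CAP1, which speeds the recycling of cofilin-bound actin (ENSG00000131236, chromosome 1 from 40040233 to 40072649), read 22.2 and 28.6 FPKM with miR-NC, against 15.8 and 19.1 with miR-187. The miR-187 libraries were lower by a margin no larger than the spread within a group, and the log2 fold change was -0.51 ± 0.18 (SE) as deposited and -0.05 ± 0.14 after median-of-ratios scaling. CAP1 shares 1189 bases with PPT1 on the opposite strand, which read 24.4 and 30.4 FPKM with miR-NC, against 46.8 and 44.2 with miR-187. No source used here states whether counting used strand, so reads from that stretch cannot be assigned.

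The twinfilins were the scarcest members and parted from each other. TWF1 (ENSG00000151239) lies on chromosome 12 from 43793723 to 43806375 and TWF2 (ENSG00000247596) on chromosome 3 from 52228610 to 52239260. TWF2 read 15.3 and 17.0 FPKM with miR-NC, against 8.57 and 7.40 with miR-187, a log2 fold change of -0.93 ± 0.19 (SE), and -0.49 ± 0.13 after median-of-ratios scaling. Its mean with miR-187 was 49.4% of the control mean, the lowest after TMSB10, and the groups lay well apart. TWF1 read 3.36 and 3.86 FPKM with miR-NC, against 3.85 and 2.79 with miR-187, and its groups overlapped, with a log2 fold change of -0.10 ± 0.25 (SE) as deposited and 0.28 ± 0.18 once scaled. The TWF1 to TWF2 ratio was 0.219 and 0.228 with miR-NC against 0.450 and 0.377 with miR-187, so that the groups did not overlap.

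**Figure D3:**
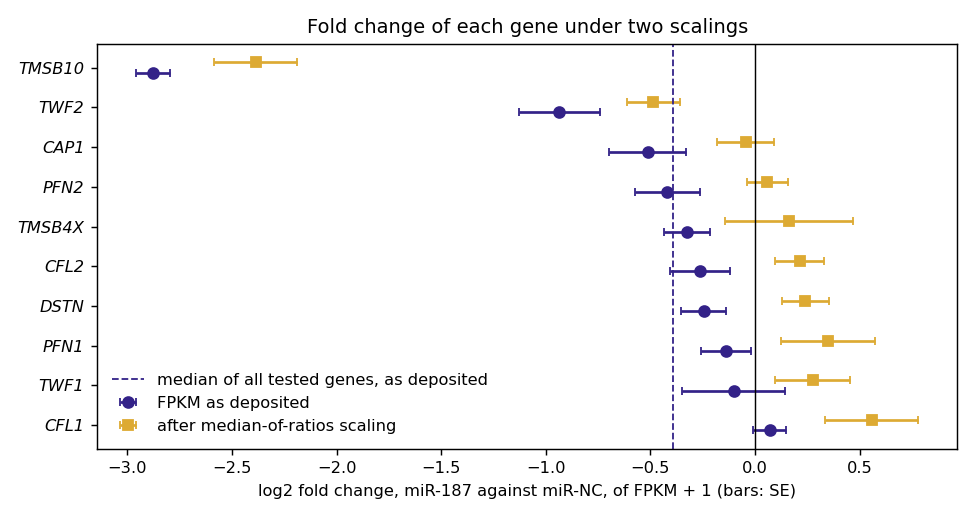
Log2 fold change (miR-187 against miR-NC, of FPKM + 1) of each gene with its SE, as deposited (circles) and after median-of-ratios scaling (squares). As deposited 9 of 10 lie below 0; after scaling TMSB10 (-2.39), TWF2 (-0.49) and CAP1 (-0.05) do, while the dashed line marks the median of all tested genes as deposited, -0.39.

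In the values as deposited TMSB10, TMSB4X and TWF2 passed the limma test across all genes (adjusted p below 0.05), all as lower, while 28.8% of tested genes passed, 27.3% as lower and 1.49% as higher. After median-of-ratios scaling TMSB10 alone passed, where 8.37% of tested genes did, 3.7% as lower and 4.67% as higher. The groups did not overlap for 7 of the 10 genes, all with miR-187 below, against 65.4% of tested genes that were lower without overlap and 5.93% that were higher. Nothing is read from these counts, since the contrast was in view when the family was chosen. The median log2 fold change of the 10 genes was -0.29 as deposited and 0.19 once scaled by median of ratios. Of the 10, 4 lay below the median of all tested genes as deposited. Where a fit left a group with 1 library, that library was taken to vary like the other group. The adjusted p-values of TMSB10 differed between these fits by many orders of magnitude, so a pass does not mean the same in each. Passes of the members in these refits are a description and lend no support, because the same contrast was in view. TMSB4X passed in only 1 of the 4 fits that left out a library, that without miR-187 replicate 1, and TWF2 passed in 3, all but that without miR-187 replicate 2. TMSB10 passed in all 4, though not in the fit without a filter on low values, where 0 of 25001 genes passed (4189 had an unadjusted p below 0.05).

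The share of the family held by TMSB10 was smaller with miR-187. Shares add up to a fixed total, so those of the other genes together had to be larger. TMSB10 took 32.1% and 34.2% of the summed FPKM of the 10 genes with miR-NC against 7.10% and 7.28% with miR-187. TMSB4X took 43.9% and 41.0% against 57.4% and 50.7%, and CFL1 16.0% and 16.4% against 25.6% and 28.5%. PFN1 took 6.14% and 6.01% against 7.31% and 10.6%. In level as deposited, TMSB4X was lower with miR-187, though its log2 fold change was 0.16 ± 0.31 (SE) after median-of-ratios scaling. CFL1 and PFN1 overlapped between groups. The sum of the 10 genes was 18311 and 16168 FPKM with miR-NC, against 11394 and 10228 with miR-187. The mean sum differed by -6429 FPKM, of which TMSB10 made up 76.7%. Without TMSB10 the sums were 12427 and 10637 FPKM against 10585 and 9483 FPKM, and the mean was 87.0% of the control mean.

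**Figure D4:**
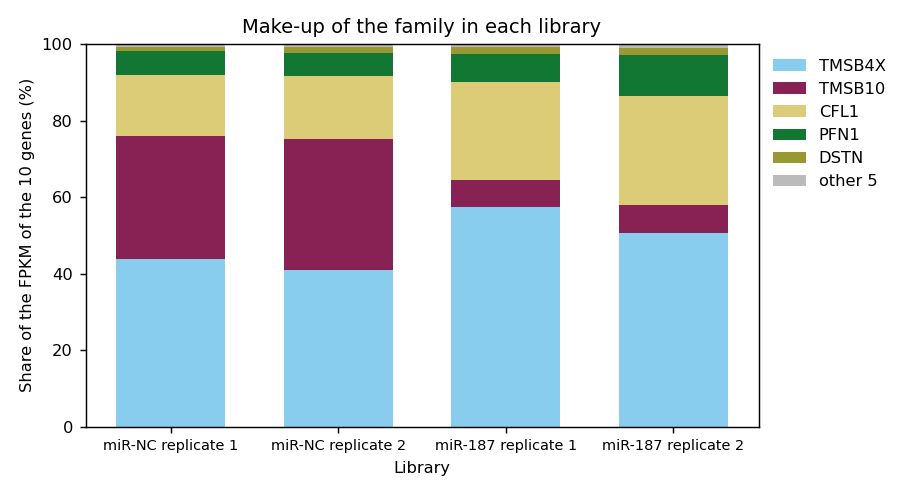
Share of the summed FPKM of the 10 genes (%) held by each gene in each library. TMSB10 narrows from 32.1% and 34.2% with miR-NC to 7.10% and 7.28% with miR-187, and CFL1 widens from 16.0% and 16.4% to 25.6% and 28.5%.

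Actin itself is the partner of all 10 proteins, and its transcripts were higher with miR-187. ACTB and ACTG1, the cytoplasmic actin genes, summed to 37580 and 34671 FPKM with miR-NC against 48518 and 52976 FPKM with miR-187. Of the 6 actin genes 3 were tested and all 3 passed as higher by limma, where 1.49% of all tested genes did. The log2 fold change was 0.66 ± 0.07 (SE, adjusted p = 6.2e-05) for ACTB and 0.27 ± 0.08 (SE, adjusted p = 0.0206) for ACTG1. For the smooth muscle gene ACTA2 it was 1.30 ± 0.19 (SE, adjusted p = 0.000705). These genes were listed with earlier results of these data known, so the calls are a description. The log2 fold changes were larger after median-of-ratios scaling, at 1.15 for ACTB, 0.76 for ACTG1 and 1.75 for ACTA2. Only ACTA2 passed there by limma (adjusted p = 0.00714, against 0.143 for ACTB and 0.265 for ACTG1), where 4.67% of all tested genes passed as higher. Other scalings moved the actin genes the other way, their median going from 0.66 as deposited to 0.21 with quantile normalization (1 passed) and 0.37 with cyclic loess (2 passed). ACTG1 no longer passed when replicate 2 of miR-NC (adjusted p = 0.168) or of miR-187 (adjusted p = 0.192) was left out. Actin genes and their many pseudogenes are near-identical, so reads can be split among them. ACTA1, ACTC1 and ACTG2 stayed below 0.25 FPKM in every library.

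Relative to actin, the 4 most abundant binders were each lower with miR-187. TMSB10 stood at 0.157 and 0.160 of the summed ACTB and ACTG1 level with miR-NC against 0.0167 and 0.0141 with miR-187. TMSB4X stood at 0.214 and 0.191 against 0.135 and 0.0979, PFN1 at 0.0299 and 0.0280 against 0.0172 and 0.0204, and CFL1 at 0.0778 and 0.0763 against 0.0602 and 0.0550. None of these groups overlapped. The actin sum was itself at 140% of its control mean, while 85.2% of tested genes had a log2 fold change below 0. Most tested genes were therefore lower relative to actin too, and these ratios set the binders apart from no other genes. For CFL1 and PFN1 the lower ratio came with higher actin values, their own levels having overlapped. The thymosins together stood at 0.370 and 0.351 of actin with miR-NC against 0.152 and 0.112 with miR-187, and the 10 genes at 0.487 and 0.466 against 0.235 and 0.193.

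**Figure D5:**
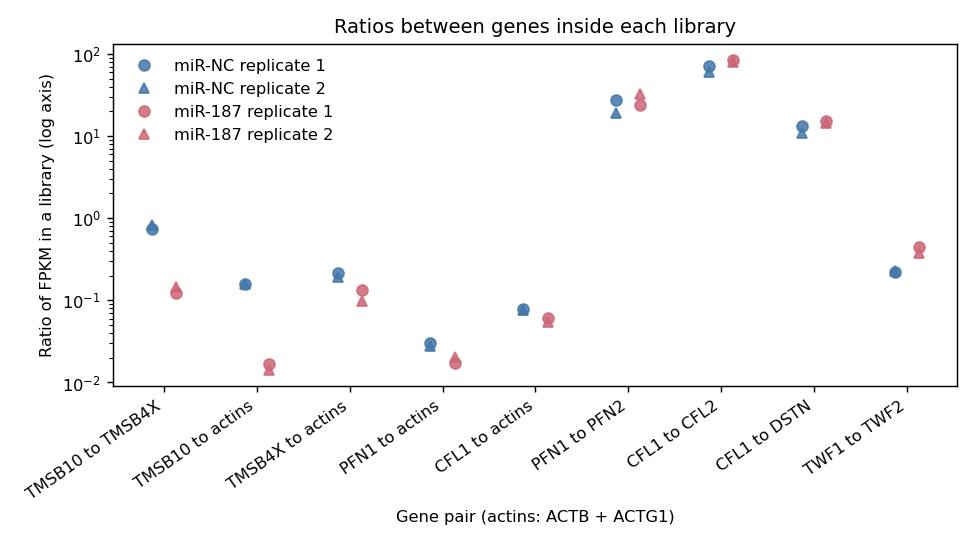
Ratio of FPKM between genes inside each library (log axis); blue marks miR-NC, red marks miR-187, circles replicate 1 and triangles replicate 2, and actins are ACTB plus ACTG1. TMSB10 to TMSB4X goes from 0.732 and 0.834 to 0.124 and 0.144, while PFN1 to PFN2 overlaps between groups.

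Other genes of the actin cycle were counted from lists written for the purpose with earlier results of these data known. Of 117 listed genes 54 were tested. In the limma fit 16 passed (29.6%, against 28.8% of all tested genes), 13 as lower (24.1%, against 27.3%) and 3 as higher, the latter being the actin genes. SSH1, PAK1 and FMN1, among the 13, reached the filter only through the miR-NC libraries, so they had to differ in that direction to be tested. Of the 16, ACTB, ACTA2, CORO1C, CAPZA2, ZYX and CCN2 passed with each library left out in turn. After median-of-ratios scaling ACTA2, ZYX and CCN2 passed again, as did CAPG, FHL2 and TPM1, each of these 3 as higher and named after their values were seen.

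Among kinases and phosphatases that switch cofilin off and on, 4 of 13 were tested and 3 passed as lower. Of all tested genes 27.3% did. The phosphatase gene SSH2 fell from 4.95 to 2.23 FPKM (adjusted p = 0.0465). The phosphatase gene SSH1 averaged 1.73 FPKM with miR-NC and 0.774 with miR-187, and the kinase gene PAK1 1.89 and 0.685 FPKM. Both passed as lower (adjusted p = 0.0461 and 0.0204), but nothing is read from those calls, because of the filter. The kinase gene LIMK1 read 1.51 and 1.40 FPKM with miR-NC, against 1.43 and 0.895 with miR-187 and did not pass (adjusted p = 0.515). None of the 3 passed after median-of-ratios scaling. Each of them failed when some library was left out. The adjusted p of SSH2 was 0.288 with miR-NC replicate 2 omitted and 0.347 with miR-187 replicate 1 omitted, that of SSH1 was 0.191 or 0.170 with the first or the other miR-187 library omitted, and that of PAK1 was 0.184 with miR-187 replicate 2 omitted. With either miR-NC library omitted, SSH1 and PAK1 dropped below the filter.

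Paralogs outside the 10 genes counted 7 tested and 1 lower, COTL1, a cofilin-fold protein gene that went from 18.2 to 9.07 FPKM (log2 fold change -0.94, adjusted p = 0.0049, and 0.0709 without miR-187 replicate 1). The thymosin paralogs TMSB15A (-0.46) and TMSB15B (-0.36) and the drebrin-like gene DBNL (-0.29) did not pass, and the last of them lay at 0.18 after median-of-ratios scaling and TMSB15B at 0.08. Of formins, WH2 proteins and Ena/VASP proteins, which nucleate or extend filaments, 1 of 12 tested passed as lower, the formin gene FMN1, at 1.78 FPKM with miR-NC and 0.531 with miR-187 (adjusted p = 0.0127), to which the same limit of the filter applies. FHOD1 (-0.62), DIAPH1 (-0.54) and WIPF2 (-0.51) did not pass. Beside these list counts, 27.3% of all tested genes passed as lower. Neither COTL1 nor FMN1 passed after median-of-ratios scaling (limma adjusted p = 0.103 and 0.108). For FMN1 the adjusted p was 0.0964 with miR-187 replicate 1 omitted, and the gene dropped below the filter with either miR-NC library omitted.

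Severing and disassembly partners of cofilin counted 2 lower of 9 tested, where 27.3% of all tested genes passed as lower. CORO1C, a coronin, fell from 27.5 to 14.8 FPKM (log2 fold change -0.84, adjusted p = 0.00486), and the gelsolin gene GSN from 17.6 to 8.94 FPKM (-0.91, adjusted p = 0.00479, and 0.0595 without miR-187 replicate 2). The supervillin gene SVIL (-0.59) and the coronin gene CORO7 (-0.41) did not pass. After median-of-ratios scaling CORO1C and GSN did not pass, nor did CAPZA2 and CAPZB, named next. Filament end capping counted 2 lower of 8. These were subunits of capping protein, CAPZA2 from 19.0 to 9.21 FPKM (-0.97, adjusted p = 0.0029) and CAPZB from 12.5 to 5.55 FPKM (-1.04, adjusted p = 0.00857, 0.0589 with miR-NC replicate 2 and 0.0911 with miR-187 replicate 1 omitted), whereas EPS8L2 (-0.55) and CAPZA1 (-0.28, and 0.20 after median-of-ratios scaling) did not pass.

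Monomeric actin holds back the coactivator MRTF, which drives SRF target genes. Of 14 tested genes on that list, which includes the actins, 4 fell and 3 rose, the latter being the actin genes already given. Of all tested genes 27.3% passed as lower and 1.49% as higher. The matricellular gene CCN2 fell from 15.9 to 4.22 FPKM (-1.63, adjusted p = 0.00115) and the focal adhesion gene ZYX from 14.4 and 16.8 FPKM to 6.86 and 5.14 FPKM (-1.25, adjusted p = 0.00162), and both also passed as lower after median-of-ratios scaling. VCL (-1.05, adjusted p = 0.00857) and FLNA (-0.58, adjusted p = 0.0251) passed as lower in the values as deposited and are named to complete the 4. The adjusted p of VCL was 0.0515 or 0.0919 with one or the other miR-187 library omitted, and that of FLNA was 0.102 or 0.230 likewise and 0.0859 with miR-NC replicate 2 omitted. The list median was -0.27, against -0.39 over all tested genes, with genes called in both directions. After median-of-ratios scaling the list median was 0.17, against -0.01, with 2 genes called lower and 3 higher (ACTA2, FHL2 and TPM1). Under that scaling 3.7% of all tested genes passed as lower and 4.67% as higher.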

How the data were processed

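Messenger RNA of 4 EA.hy926 libraries (miR-NC and miR-187, n = 2 each, grouped by sample title) was sequenced. The study describes the EA.hy926 cells as transfected with miR-187, and the dose for the sequenced cells was not found in the sources used here. The authors deposited 1 FPKM value per gene and library. The submitters' processing notes name HISAT2, StringTie, DESeq2 and hg19, without versions. FPKM falls for all other genes when abundant transcripts take a larger share of a library, and near-identical copies can divide reads. Depth is unknown: among genes below 0.05 FPKM only 1.87% to 3.13% shared the commonest ratio to miR-NC replicate 1, so whole reads were not recovered and no counting interval is given.

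Pseudoautosomal copies on chromosome Y were left out, and 58611 of 62443 identifiers matched a symbol. Genes reaching 1 FPKM in 2 or more libraries were fitted as log2(FPKM + 1) with limma 3.58.1 (R 4.3.3; group term, intensity trend, two-sided, Benjamini-Hochberg over all tested genes, threshold 0.05). Fold changes on this scale understate those of low genes. The limma steps were tested on simulated data. Alternatives changed the pseudocount, filter, scaling, variance trend, replicate block and libraries. The members and lists were chosen with earlier results of these data known. Besides the 10 members and 6 actin genes, up to 4 genes per list with the smallest p were named, together with pseudogenes of members at 1 FPKM or more and the 3 profiles nearest to TMSB10. CAPG, FHL2, TPM1, VCL, FLNA, GIPC1 and TUBA1B-AS1 were named after their values were seen. Others serve as markers or overlapping genes.

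One 3' UTR per gene (principal coding transcript, then the longest) was read from GENCODE 29 (GRCh38). No coordinate was converted from hg19. Sites were derived from the RefSeq mature miRNA. Python 3.11.15 (numpy 2.4.6, pandas 2.3.3, matplotlib 3.10.9) served for sequences and plots.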

Additional observations from a re-analysis of the deposited data

How the results depend on the processing

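TMSB10 stayed between -2.94 and -2.39 on the log2 scale in 15 alternatives and passed in 14, all but the fit without a filter on low values, in which limma called 0 of 25001 genes (4189 had an unadjusted p below 0.05), and so 0 of the members and 0 pathway genes. TMSB4X was the only called member to change sign, reaching 0.16 after median-of-ratios scaling. Calls of the members describe genes chosen with the contrast in view and lend no support. The members called numbered 3 as deposited, 5 when at least 1 FPKM was asked of all libraries or with TPM scaling (CAP1 and PFN2 being added), and 1 after median-of-ratios scaling, quantile normalization or cyclic loess. They numbered 1 to 4 with a library left out, 1 without miR-187 replicate 2. Genes called numbered 2358 as deposited (122 higher and 2236 lower), 686 after median-of-ratios scaling (383 and 303), 612 with quantile normalization (293 and 319), 678 with cyclic loess (318 and 360), 986 with scaling outside the 100 most abundant genes (245 and 741), and 894 to 2838 with a library left out. Pathway genes called numbered 16, and 6, 7 and 8 under the first 3 of these scalings, and 9 to 16 with a library left out. The log2 change of the thymosin to actin ratio was -1.45, and -1.69 to -1.25 with a library left out. The replicate numbers name no shared culture, and the deviations of same-numbered libraries correlated at -0.06. With the replicate block 2633 genes and 4 members were called, CAP1 being added. The causes of these shifts were not tested.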
